A study of Mus musculus with 8 samples.

Results

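The cyclins, the cyclin-dependent kinases (CDKs) and the CDK inhibitors were examined among the RNAs recovered with DAZL from embryonic mouse gonads. The genes were chosen by name alone. They were those whose name in the array files begins with Ccn and a further letter, or with Cdk, Cdkn or Cdc followed by a number, which gave 84 of 27845 gene names and 171 of 41174 probes. The Cdc prefix also brings in genes outside the cell cycle. The GTPase gene Cdc42, the genes named after it and a set of unrelated Cdc genes made up 19 of the 84 genes and 43 of the 171 probes, and they are included in the member counts and plots and described after the cyclins, CDKs and inhibitors.

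At E14.5, XX and XY gonads of MCH mice were lysed in lots of 50. RNA came either from an anti-DAZL precipitation or, as input, from 5% of the lysate. DAZL is a protein of germ cells, whereas the gonads were whole and so also held somatic cells. No genotype or treatment set the samples apart other than sex and precipitation. Input and immunoprecipitate (IP) of each sex made 4 groups of 2 one-colour arrays, for which 50 ng (input) or 1 ng (IP) of RNA was labelled. Every enrichment is relative to the input, since no control-antibody precipitation was analysed here. The labels number the replicates without saying whether they came from separate lots, so the p-values measure the spread between these samples, which may be technical.

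A cyclin binds and activates a CDK, and the pair drives one step of the cell cycle. D cyclins with CDK4 or CDK6 and E cyclins with CDK2 act before and at the start of DNA replication, and A and B cyclins act later, the B cyclins with CDK1 at division. Inhibitors of the INK4 family bind CDK4 and CDK6, those of the CIP/KIP family bind a wider range of cyclin-CDK pairs, and at the age studied XX germ cells are entering meiosis while XY germ cells are entering mitotic arrest. DAZL binds mRNAs and is known to promote their translation.

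Levels are log2 signals minus the 75th percentile of their array. A level of 0 is therefore the signal below which 75% of the probes of that array lie. The dimmest detected probe lay at 1.02 and 0.28 on the XX IP arrays and at 0.91 and 0.03 on the XY IP arrays. The signal that each IP array was centred on was therefore itself below detection, whereas the inputs detected probes down to levels between -3.59 and -2.34. Every fold of IP over input rests on that scaling. Differences are taken between arrays for a probe. Levels of different probes are set side by side only to call a probe bright or dim and to sum markers. The inputs had 16713 to 20391 probes well above background and the IPs 6068 to 9468. Of the 171 member probes, 51 were not tested, 1 of them because its spots were marked as outliers and the others because they were above background on both arrays of no group. The 120 tested probes covered 75 genes, and 28 of them were above background on all 8 arrays. The genes with no tested probe were Ccna1, Ccnk, Cdc20b, Cdc25c, Cdc42bpg, Cdk2, Cdk3, Cdk5r2 and Cdkn2a. All XX arrays lay on 1 slide and all XY arrays on the other, so in comparisons of XX with XY the slide cannot be told apart from sex.

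Among the marker genes, the summed linear level of the 7 germ cell markers was 92.7 to 103.0 in the XX inputs and 517.0 to 578.0 in the XX IPs, and 119.0 to 153.0 in the XY inputs and 576.0 to 889.0 in the XY IPs. Of the 7 markers 4 were above background on both XX IP arrays and 5 on both XY IP arrays. The 5 markers of ovarian supporting cells summed to 89.3 to 90.8 in the XX inputs and 15.5 to 20.2 in the XX IPs, with Foxl2 not above background on any array. The 4 measured Leydig cell markers summed to 77.3 to 82.3 in the XY inputs and 10.4 to 17 in the XY IPs, and the 5 Sertoli cell markers to 166.0 to 202.0 and 57.2 to 115.0. By the limits used below for the IPs, Dazl, Dppa3 and Sycp3 were enriched in both sexes and Nanos3 in XX, where none of its arrays was above background, which is 4 of 7 germ cell markers in XX and 3 in XY. Ddx4 (1.91 in XX and 1.78 in XY) was under the 4-fold limit, and Dnd1 (0.15 and 0.54) and Pou5f1 (1.87 and 0.06) were not called either. Depleted were all 3 tested ovarian supporting markers in XX and, in XY, 2 of 4 Leydig markers and 1 of 5 Sertoli markers, Dhh. Both tested endothelial markers were depleted in XX (Cdh5 at -2.68 and Kdr at -2.74, with no XX IP array above background), and 2 of 3 erythroid markers in each sex, Hba-a1 (-2.46 and -2.24) and Alas2 (-2.73 and -2.70). The test also called 1 Sertoli marker enriched in XX, Amh (2.87, adjusted p = 0.00041), and 1 ovarian supporting marker in XY, Fst (2.16, adjusted p = 0.0072), neither above background on any array of that sex. The erythroid markers summed to 623.0 to 936.0 in the XX inputs and 174.0 to 413.0 in the XX IPs, and overlapped in XY, at 924.0 to 1090.0 in the inputs and 450.0 to 1430.0 in the IPs. The part of these marker differences in the values below was not tested. In these whole gonads, fewer cells of a type and less RNA per cell cannot be told apart.

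DAZL IPs recovered the members very unevenly. Over all 120 probes the log2 difference, IP minus input, ran from -3.26 to 4.04 in XX and from -3.69 to 4.34 in XY, and the medians were 0.00 and 0.03, beside 0.09 and -0.03 for all 18265 tested probes. In XX, 15 member probes (12.5%) were enriched and 9 (7.5%) depleted at an adjusted p under 0.05 (limma) and at least 4-fold, beside 14.0% and 9.91% of all tested probes. In XY, 13 (10.8%) were enriched and 11 (9.17%) depleted, beside 10.2% and 7.68%. These shares lay near those of all probes. Without Cdc42, the genes named after it and the unrelated Cdc genes, 88 tested probes remained, of which 12 (13.6%) were enriched and 6 (6.82%) depleted in XX and 10 (11.4%) and 8 (9.09%) in XY. How many probes are called on each side depends on the scaling. With the 50th percentile in place of the 75th, the median of all tested probes moved to -1.92 in XX and -1.90 in XY. The member counts were then 2 enriched and 59 depleted in XX and 1 and 53 in XY. Of all 18265 tested probes, 189 and 8643 were so called in XX and 219 and 8379 in XY. Cdkn2d and a Cdc42 probe were still enriched in XX, and that of Cdc42 in XY. Quantile normalization moved the medians to -0.74 and -0.73. It gave 14 and 22 members in XX (all probes 1479 and 3286) and 10 and 15 in XY (1241 and 2478). The percentile taken over probes detected on every array moved the medians to -0.34 and -0.36. It gave 12 and 17 members in XX (all probes 1672 and 2858) and 10 and 12 in XY (1256 and 2184). With normexp background correction 0 members were enriched and 14 depleted in XX (all probes 79 and 2055), and 1 and 9 in XY (65 and 1038). Changes below are on the scale of the 75th percentile over all probes, and no called member probe turned its sign in any setting. More members were enriched in XX without XX IP replicate 1, and fewer were depleted in XY without XY IP replicate 1. The same held for all tested probes.

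Some called probes were not detected in the IPs. Of the enriched probes, 13 of 15 in XX and 11 of 13 in XY were above background on both IP arrays of that sex. Among members that both IP arrays detected, 31% of 42 were enriched in XX and 27.5% of 40 in XY, beside 26.8% and 20.0% of all probes so detected, and 2 and 0 were depleted, beside 7.12% and 5.78%. All 9 probes depleted in XX and all 11 depleted in XY were above background on both inputs, whereas 2 and 4 of them were above background on no IP array. In both sexes 8 probes (6.67%) were enriched and 6 (5.00%) depleted, beside 5.78% and 5.17% of all tested probes, and 0 were called in opposite directions. Of those 8, 7 were above background on all 4 IP arrays, and the other, a Ccne2 probe, was above background on no XY array. In the text a gene is represented by its brightest tested probe unless another is named.

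**Figure D1:**
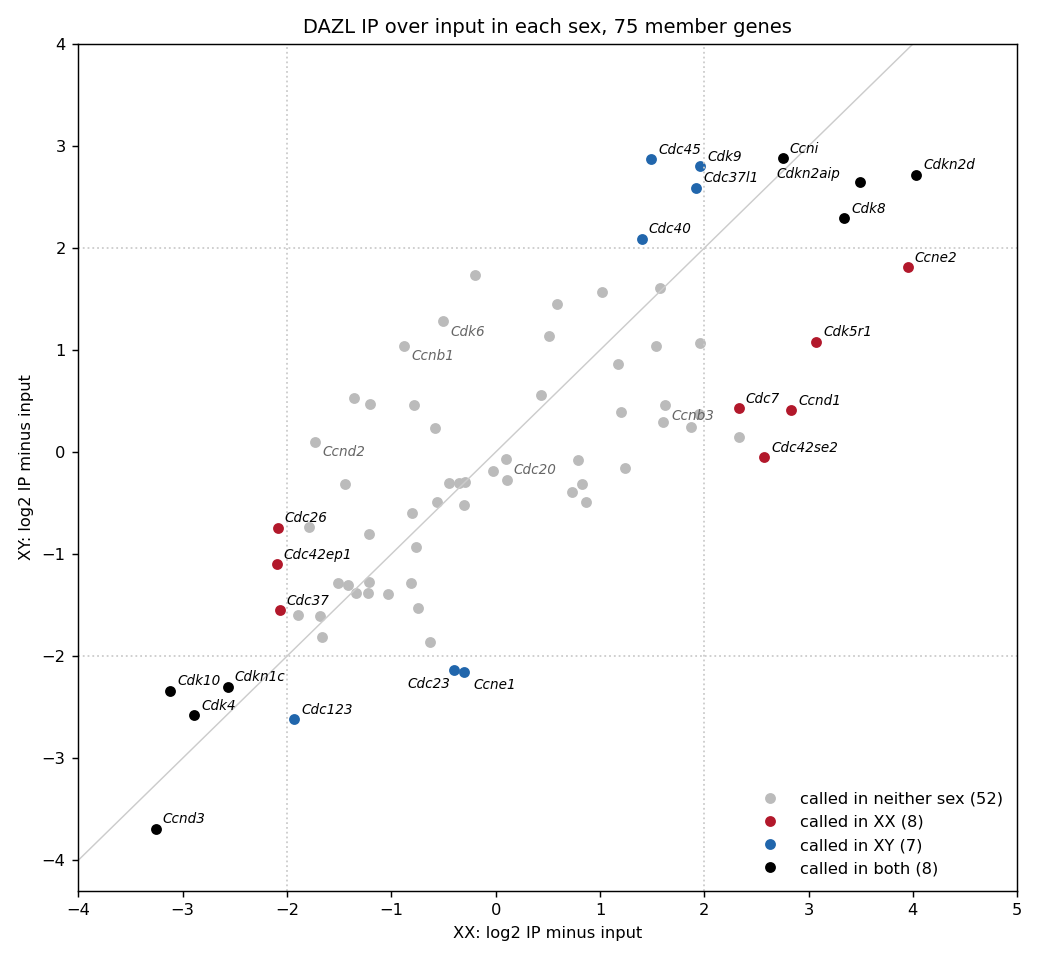
Log2 difference of DAZL IP minus input in XX (horizontal axis) and XY (vertical axis) for 75 member genes, 1 point per gene at its brightest tested probe. Dotted lines mark 4-fold, and colours give the sexes in which a gene was called. Ccni, Cdkn2d, Cdk8 and Cdkn2aip lie in the upper right and Ccnd3, Cdk4, Cdk10 and Cdkn1c in the lower left, called in both sexes.

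The D cyclins, which activate CDK4 and CDK6, went different ways. Ccnd3 had levels of 3.62 and 3.39 in the XX inputs, -0.62 and 1.11 in the XX IPs, 4.06 and 3.88 in the XY inputs, and -0.40 and 0.96 in the XY IPs. Both IPs lay below both inputs in each sex. The difference was -3.26 in XX (SE 0.59, limma adjusted p = 0.001), or 9.56-fold lower, and -3.69 in XY (SE 0.59, adjusted p = 0.00073), or 12.9-fold lower. One IP array per sex detected Ccnd3, and with the undetected array set at its dimmest detected probe the folds were 5.41 and 8.2. The difference ranged from -4.12 without XX IP replicate 2 to -2.39 without XX IP replicate 1, and from -4.37 without XY IP replicate 2 to -3.01 without XY IP replicate 1. Ccnd3 remained depleted in all 4.

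Ccnd1 was enriched in XX. Its levels were 0.10 and 0.22 in the XX inputs, 2.52 and 3.46 in the XX IPs, -0.63 and -0.50 in the XY inputs, and -0.54 and 0.22 in the XY IPs. The XX IPs lay above all other arrays, and neither XY IP was above background. The difference was 2.83 in XX (SE 0.45, adjusted p = 0.00047, 7.11-fold). In XY the value was 0.41 (adjusted p = 0.49), and the XX minus XY difference of 2.42 had an adjusted p of 0.06. That difference passed without XX IP replicate 1 (2.89, adjusted p = 0.048) and without XY IP replicate 2 (2.80, adjusted p = 0.024), and not without any other array.

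Ccnd2 was called in neither sex. Its brightest probe had differences of -1.73 in XX (adjusted p = 0.0087, 3.33-fold lower and so under the 4-fold limit) and 0.10 in XY (adjusted p = 0.87). The other Ccnd2 probes gave -0.90 and -1.01 in XX and -0.16 and -0.19 in XY. Without XX IP replicate 2 the brightest probe passed in XX at -2.15.

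The E cyclins, which activate CDK2, also differed from each other. Ccne2 levels were -0.11 and -0.19 in the XX inputs and 3.69 and 3.91 in the XX IPs. In XY they were -2.84 and -3.24 in the inputs and -0.19 and -2.26 in the IPs, and none of these 4 arrays was above background. Ccne2 was enriched 15.4-fold in XX (log2 difference 3.95, SE 0.57, adjusted p = 0.00029), and its second probe gave 3.89 (SE 0.42, adjusted p = 8.6e-05). No fold is given for XY, where neither side was above background. The second probe nevertheless passed in XY (3.25, SE 0.42, adjusted p = 0.00021) with no XY array above background, and is counted above among the 13 probes enriched in XY. Ccne1 levels were 3.73 and 3.64 in the XX inputs, 2.99 and 3.79 in the XX IPs, 2.35 and 2.29 in the XY inputs, and -0.66 and 0.99 in the XY IPs. It was depleted in XY (-2.16, SE 0.53, adjusted p = 0.0075), while in XX the arrays overlapped (-0.30, adjusted p = 0.66). The XY call was lost without XY IP replicate 1 (-1.34) and the value was -2.98 without XY IP replicate 2. One XY IP array detected it, and with the other at its dimmest detected probe it was 2.59-fold lower. A second, dim Ccne1 probe that no IP array detected gave 1.31 and 0.67, with no call.

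Of the G1 kinases, Cdk4 was depleted in both sexes. Its levels were 2.31 and 1.70 in the XX inputs, -0.93 and -0.84 in the XX IPs, 2.62 and 2.39 in the XY inputs, and -0.36 and 0.20 in the XY IPs. No IP array was above background, so the changes are bounds, at least 2.55-fold lower in XX and at least 3.86-fold lower in XY (fitted differences -2.89, adjusted p = 0.00026, and -2.58, adjusted p = 0.00072). Here and below, a bound replaces each undetected signal by that of the dimmest detected probe of the array where this is higher. Cdk6, whose product also pairs with D cyclins, was detected on all 8 arrays. It had levels of 2.77 and 2.97 in the XX inputs, 2.26 and 2.48 in the XX IPs, 1.82 and 2.01 in the XY inputs, and 2.68 and 3.71 in the XY IPs. Neither difference was called, at -0.50 (XX, adjusted p = 0.36) and 1.28 (XY, adjusted p = 0.034, 2.42-fold). Cdk1, the kinase of B cyclins, was detected on no IP array, and its values were -1.34 (adjusted p = 0.043) and -1.38 (adjusted p = 0.044).

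The INK4 inhibitor Cdkn2d, which encodes p19INK4d, was enriched in both sexes. Its levels were 3.21 and 3.42 in the XX inputs, 6.91 and 7.77 in the XX IPs, 3.04 and 3.04 in the XY inputs, and 5.27 and 6.25 in the XY IPs. All IP arrays lay above all input arrays. The enrichment was 16.3-fold in XX (4.03, SE 0.46, adjusted p = 0.0001) and 6.6-fold in XY (2.72, SE 0.46, adjusted p = 0.001), at percentiles 99 and 94.8 of all tested probes. The difference between the sexes, 1.30, had an adjusted p of 0.36. The other measured INK4 genes, Cdkn2b (p15INK4b) and Cdkn2c (p18INK4c), were not called: Cdkn2b had 1.17 and 0.86 (adjusted p = 0.035 and 0.12) and Cdkn2c 1.20 and 0.39 (adjusted p = 0.091 and 0.6). Cdkn2a, which encodes p16INK4a and ARF, was not tested.

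The CIP/KIP inhibitor Cdkn1c, which encodes p57KIP2, was depleted in both sexes. Its levels were 6.18 and 6.09 in the XX inputs, 2.98 and 4.14 in the XX IPs, 4.14 and 3.83 in the XY inputs, and 0.86 and 2.51 in the XY IPs. Each pair of IPs lay below the pair of inputs of its sex. The change was 5.93-fold lower in XX (-2.57, SE 0.56, adjusted p = 0.0031) and 4.92-fold lower in XY (-2.30, SE 0.56, adjusted p = 0.0073). It fell short of 4-fold without XX IP replicate 1 (-1.99) and without XY IP replicate 1 (-1.48), and the XY value was -3.12 without XY IP replicate 2. One XY IP array detected it, and with the other at its dimmest detected probe the XY fold was 4.85. Cdkn1a (p21) was detected on no IP array, with values of -1.36 (XX, adjusted p = 0.019) and 0.53 (XY, adjusted p = 0.34). Cdkn1b (p27) was detected on 1 XY IP array, with values of -0.78 and 0.46 (adjusted p = 0.19 and 0.46).

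**Figure D2:**
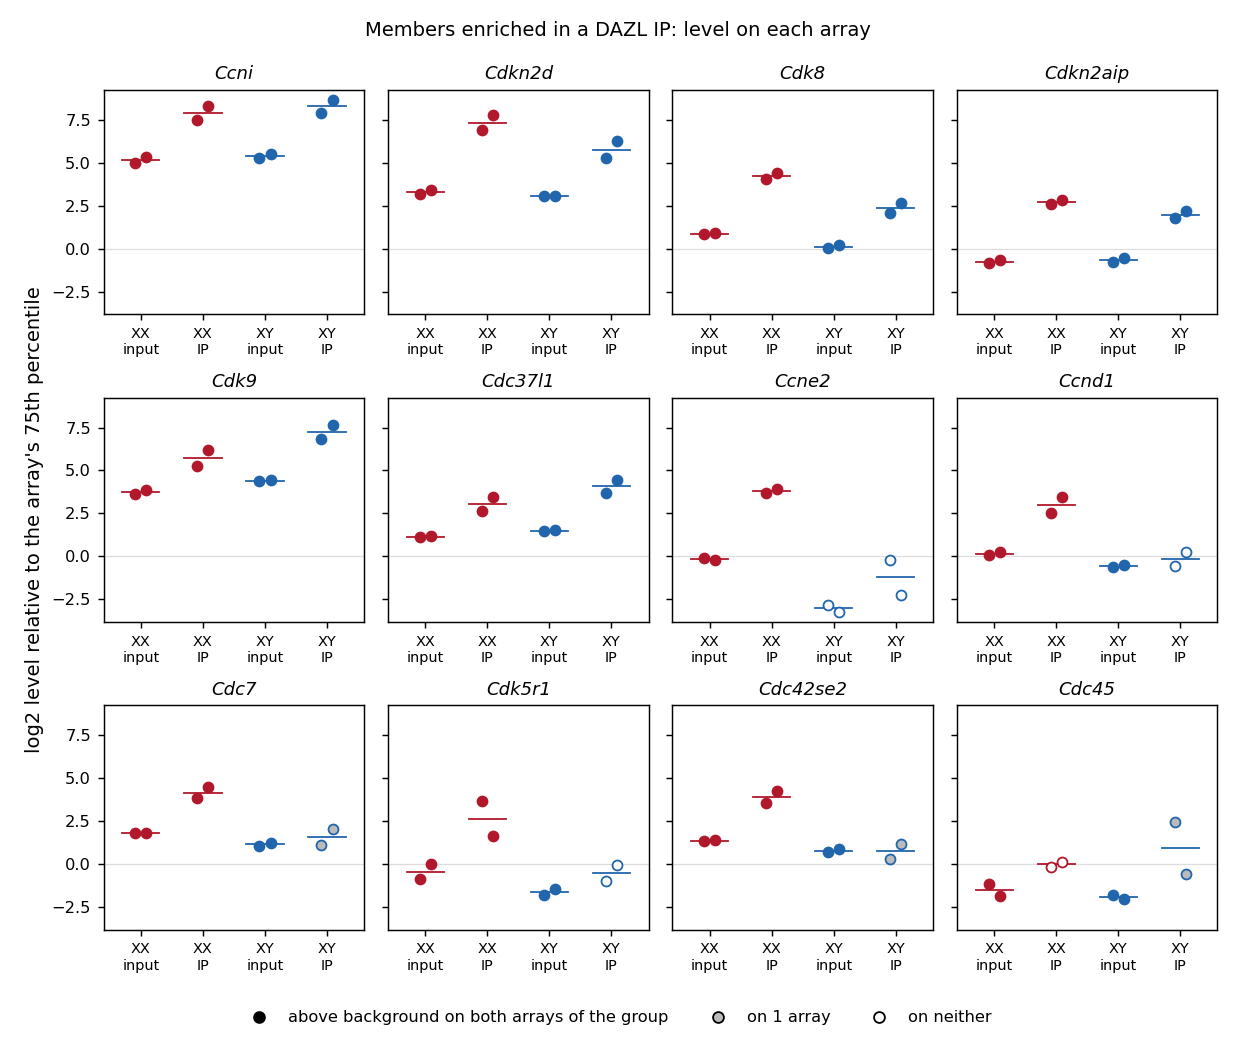
Log2 level relative to the array's 75th percentile (vertical axis) on each of the 8 arrays for 12 genes enriched in at least 1 sex. Points are arrays, lines are means of 2 arrays, and fill gives how many arrays of the group were above background. Cdkn2d, Ccni, Cdk8 and Cdkn2aip rise from input to IP in both sexes, whereas the XY IPs of Ccnd1 and Cdc42se2 lie beside their inputs.

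Among the remaining cyclins, Ccni, an atypical cyclin, had the largest enrichment in XY among the gene values, and it was nearly as large in XX. Its levels were 4.97 and 5.33 in the XX inputs, 7.52 and 8.29 in the XX IPs, 5.30 and 5.52 in the XY inputs, and 7.93 and 8.64 in the XY IPs. The IPs did not overlap the inputs. The enrichment was 6.74-fold in XX (2.75, SE 0.44, adjusted p = 0.00048) and 7.35-fold in XY (2.88, SE 0.44, adjusted p = 0.00055), and the sexes differed by -0.13 (adjusted p = 0.95). Another pair of Ccni probes gave 2.78 and 2.42 in XX and 2.86 and 2.61 in XY, each called. The XX call of the 2.42 probe was lost without XX IP replicate 2 (1.90). The fourth, detected on 1 IP array per sex, gave 1.09 and 0.93 with no call. Ccng1, Ccng2 and Ccnj had no call at their brightest probes. A second Ccng1 probe, detected on no IP array, was called in XY at -2.0 (adjusted p = 0.0053), a bound of at least 1.14-fold lower, and lost the call without XY input replicate 2 (-1.87) or XY IP replicate 2 (-1.84).

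Cdkn2aip, whose product binds ARF, was enriched in both sexes at its brightest probe. Levels there were -0.86 and -0.68 in the XX inputs, 2.62 and 2.82 in the XX IPs, -0.79 and -0.55 in the XY inputs, and 1.80 and 2.17 in the XY IPs. The IPs again lay above all inputs, by 11.2-fold in XX (3.49, SE 0.39, adjusted p = 9.2e-05) and 6.29-fold in XY (2.65, SE 0.39, adjusted p = 0.00042). Its other probes were detected on no IP array and gave 0.50 and 1.10 in XX and 1.70 and 0.94 in XY. Cdkn3, a phosphatase gene that acts on CDKs, was not called (-0.63 and -1.86).

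Among the kinases of transcription, Cdk8 was enriched in both sexes and Cdk9 in XY. Cdk8, the kinase of the Mediator complex, had levels of 0.84 and 0.91 in the XX inputs, 4.03 and 4.40 in the XX IPs, 0.01 and 0.19 in the XY inputs, and 2.09 and 2.68 in the XY IPs. The rise was 10.1-fold in XX (3.34, SE 0.40, adjusted p = 0.00013) and 4.88-fold in XY (2.29, SE 0.40, adjusted p = 0.0012). Without XY IP replicate 2 the XY value was 1.99, just under the limit. Cdk9, whose product with a T cyclin releases paused RNA polymerase, had levels of 3.63 and 3.89 in the XX inputs, 5.27 and 6.18 in the XX IPs, 4.38 and 4.45 in the XY inputs, and 6.81 and 7.62 in the XY IPs. Cdk9 was enriched 6.98-fold in XY (2.80, SE 0.45, adjusted p = 0.00076), and in XX the rise of 3.9-fold (1.96, adjusted p = 0.004) fell just short of the limit. The sexes differed by -0.84 (adjusted p = 0.59).

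Cdk10, which pairs with cyclin M, was depleted. It had levels of 2.98 and 2.73 in the XX inputs, -1.17 and 0.64 in the XX IPs, 2.93 and 3.11 in the XY inputs, and 0.13 and 1.23 in the XY IPs. The XX change was -3.12 (SE 0.57, adjusted p = 0.0012) and the XY change -2.34 (SE 0.57, adjusted p = 0.0077). One IP array per sex detected this probe, so the fitted folds of 8.67 and 5.05 rest in part on undetected signals, and with those at the dimmest detected probe the folds were 4.06 and 3.86, the latter under the 4-fold limit. The XX value was -2.21 without XX IP replicate 1 and -4.02 without XX IP replicate 2, and the XY call was lost without XY IP replicate 1 (-1.79, adjusted p = 0.055). The second Cdk10 probe was detected on no IP array and gave at least 2.93-fold lower in XX and at least 3.64-fold lower in XY. Cdk5, Cdk7, Cdk11b, Cdk13 and Cdk19 had no call in either sex. Of 6 tested cyclins of transcription and RNA processing, 0 were called at the brightest probe, with ranges of -1.79 to 1.58 in XX and -0.73 to 1.61 in XY. The shares enriched and depleted among all tested probes were 14.0% and 9.91% in XX and 10.2% and 7.68% in XY. Of all 120 member probes, 69 in XX (57.5%) and 57 in XY (47.5%) had an unadjusted p under 0.05 (limma), beside 55.8% and 49.7% of all tested probes.

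**Figure D3:**
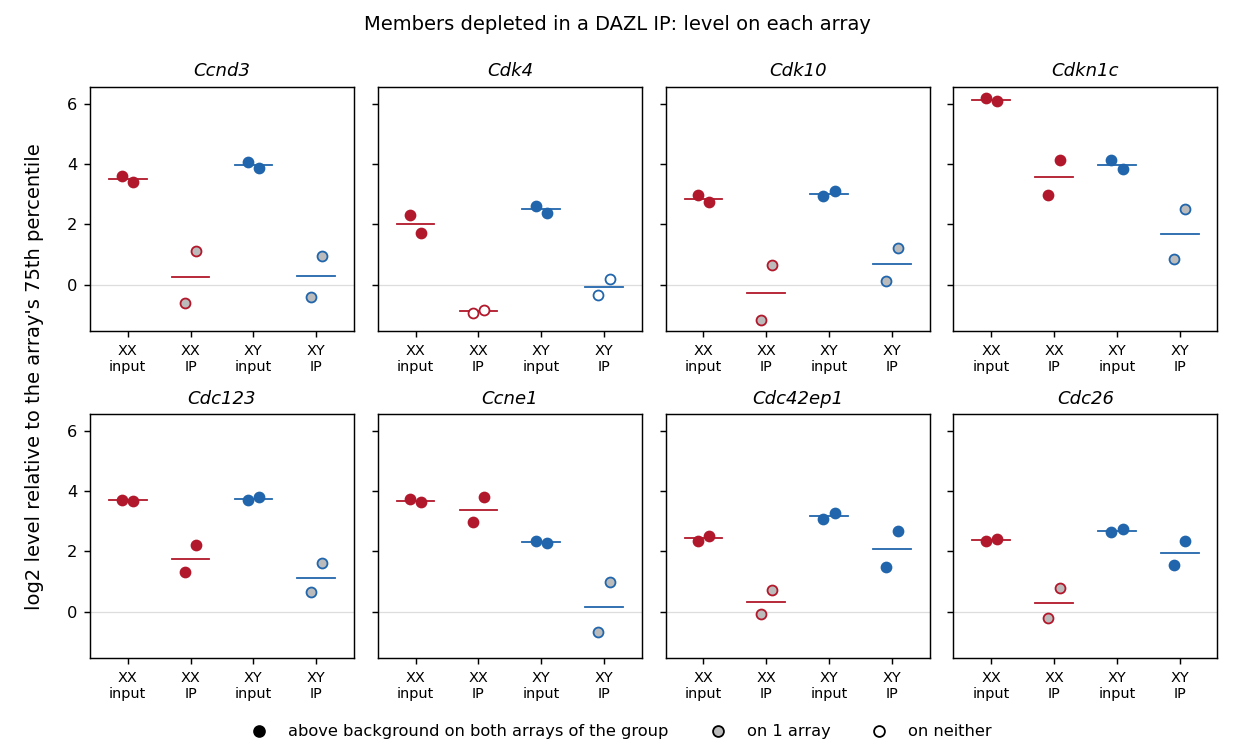
Log2 level relative to the array's 75th percentile (vertical axis) on each of the 8 arrays for 8 genes depleted in at least 1 sex. Points are arrays, lines are means of 2 arrays, and fill gives how many arrays of the group were above background. Ccnd3 falls to near or below 1 in all 4 IPs, while Cdk4 is above background in none of them.

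None of the 5 tested A, B and F cyclins was called in either IP, with ranges of -1.22 to 1.62 in XX and -1.38 to 1.04 in XY. Of all tested probes 14.0% were enriched and 9.91% depleted in XX, and 10.2% and 7.68% in XY. Ccnb3, a B cyclin of meiotic cells, had levels of 0.20 and 0.36 in the XX inputs and 1.91 and 1.89 in the XX IPs. That rise of 3.08-fold (1.62, SE 0.42, adjusted p = 0.0074) was under the limit, and neither XY IP detected it. Ccnb1 values were -0.88 in XX and 1.04 in XY (adjusted p = 0.22 and 0.16), Ccnb2 values -1.22 and -1.38 (adjusted p = 0.036 and 0.025), and Ccna2 values -0.81 and -1.28 (adjusted p = 0.18 and 0.048). The Ccnb1 and Cdk6 values at these probes pointed opposite ways in XX and XY, with limma adjusted p of 0.25 and 0.15 for the difference. The 3 Ccnb1 probes ranged from -1.78 to -0.18 in XX and from -0.23 to 1.04 in XY, all without a call. At least 1 of them was thus negative in both sexes.

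Cdc20, the activator of the anaphase-promoting complex (APC/C), was detected on all 8 arrays and called in neither sex. Its levels were 4.39 and 4.71 in the XX inputs, 4.65 and 4.65 in the XX IPs, 5.45 and 5.66 in the XY inputs, and 4.99 and 5.97 in the XY IPs. The differences were 0.10 (SE 0.43, adjusted p = 0.86) and -0.07 (SE 0.43, adjusted p = 0.91). Of the APC/C subunits, Cdc26 was depleted in XX (-2.09, SE 0.45, adjusted p = 0.003) but not without XX IP replicate 1 (-1.60), and it was 2.78-fold lower with its 1 undetected IP array at the dimmest detected probe. Cdc23 was depleted in XY (-2.14, SE 0.77, adjusted p = 0.043), a call lost without XY IP replicate 1 (-1.26) or either XY input (-2.15 and -2.12, both with an adjusted p of 0.083), and its value was -3.01 without XY IP replicate 2. With its 1 undetected XY IP array at the dimmest detected probe it was 2.13-fold lower.

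The CDC25 phosphatases, which activate CDKs, had no call. Cdc25b, detected on all arrays at its brightest probe, had values there of 1.02 and 1.57 (adjusted p = 0.076 and 0.015). A second Cdc25b probe went the other way, at -0.89 and -0.29. Cdc25a had 1.96 in XX (adjusted p = 0.0066), which passed without XX IP replicate 1 (2.50) and without XX input replicate 2 (2.06), and 1.07 in XY, where no IP array detected it.

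Of the 3 replication factors, Cdc7 was enriched in XX. Cdc7 encodes the kinase that starts replication at origins, and its levels were 1.82 and 1.83 in the XX inputs, 3.84 and 4.47 in the XX IPs, 1.07 and 1.20 in the XY inputs, and 1.09 and 2.04 in the XY IPs. The rise was 5.03-fold in XX (2.33, SE 0.44, adjusted p = 0.0013), while in XY the value was 0.43 (adjusted p = 0.46). The difference of 1.90 between the sexes had an adjusted p of 0.13, and 0.028 without XY IP replicate 2 (2.38). Cdc45, part of the replicative helicase, was called in XY (2.87, SE 0.74, adjusted p = 0.0097), but its XY IP levels were 2.44 and -0.58 and 1 of the 2 was above background. Without XY IP replicate 1 the value was 1.37 with no call, and without XY IP replicate 2 it was 4.38. Cdc6, which loads the helicase, was detected on no IP array, with values of 1.60 (XX, adjusted p = 0.0072) and 0.29 (XY, adjusted p = 0.6).

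A CDK5 activator gene and a gene named after CDC42 also reached the limits for enrichment. Cdc42se2, a small effector of CDC42, was enriched 5.95-fold in XX (2.57, SE 0.44, adjusted p = 0.00073). Its levels were 1.31 and 1.37 in the XX inputs, 3.57 and 4.25 in the XX IPs, 0.71 and 0.85 in the XY inputs, and 0.28 and 1.18 in the XY IPs. In XY the arrays overlapped (-0.05, adjusted p = 0.94). Cdk5r1, which encodes the CDK5 activator p35, had XX IP levels of 3.65 and 1.60 against input levels of -0.87 and -0.03, and was enriched 8.41-fold in XX (3.07, SE 0.62, adjusted p = 0.002). That value was 2.05 without XX IP replicate 1 and 4.09 without XX IP replicate 2, called in both, and neither XY IP was above background.

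Cdc37l1, a relative of the HSP90 co-chaperone Cdc37, was enriched 6.01-fold in XY (2.59, SE 0.43, adjusted p = 0.00095) and had a value of 1.92 in XX (adjusted p = 0.0037, 3.78-fold). Cdc37 itself was depleted in XX (-2.07, SE 0.46, adjusted p = 0.0033), which fell under the limit without XX IP replicate 1 (-1.52) and without XX input replicate 2 (-1.99). A dim second Cdc37 probe was called in XY (-2.40, adjusted p = 0.0034), a bound of at least 1.32-fold lower, but not without XY IP replicate 2 (-1.96). Cdc123, an assembly factor of a translation initiation complex, was depleted in XY (-2.62, SE 0.46, adjusted p = 0.0012, 6.13-fold lower, or 5.6-fold with its 1 undetected IP array at the dimmest detected probe) and had a value of -1.93 in XX (adjusted p = 0.0048). Its second probe, at -2.04 in XX and -2.51 in XY, was called in both, in XX not without XX input replicate 1 (-1.98) or XX IP replicate 1 (-1.44) and at -2.63 without XX IP replicate 2. One IP array per sex detected it, and with the other at its dimmest detected probe it was 3.82-fold lower in XX, under the 4-fold limit, and 5.21-fold lower in XY. Cdc42ep1, an effector of CDC42, was depleted in XX (-2.10, SE 0.48, adjusted p = 0.0039), and its value was -1.70 without XX IP replicate 1, with no call. One of its IP arrays was above background, and with the other at its dimmest detected probe it was 2.94-fold lower. A dimmer Cdc42ep1 probe, detected on no IP array, gave 1.58 in XX and 0.36 in XY. Cdc40, a splicing factor gene, passed in XY (2.09, adjusted p = 0.016), but not without XY input replicate 1 (2.08, adjusted p = 0.054) or XY IP replicate 2 (1.96).

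For 35 genes more than 1 probe was tested, and some of these probes disagreed. Cdc42 itself was the clearest case, since all 4 of its probes were above background on all 8 arrays. The probe at chr4:136593843-136593876 (mm8, the build of the files) had levels of 2.13 and 2.30 in the XX inputs, 5.83 and 6.66 in the XX IPs, 3.18 and 3.14 in the XY inputs, and 7.21 and 7.80 in the XY IPs. It was enriched 16.4-fold in XX (4.04, SE 0.43, adjusted p = 8.4e-05) and 20.3-fold in XY (4.34, SE 0.43, adjusted p = 5.3e-05). The brightest probe, at chr4:136591974-136592033, gave 1.87 and 0.25 (adjusted p = 0.0066 and 0.69). Those at chr4:136601123-136601182 and chr4:136604522-136608076 gave 0.82 and 0.73 in XX and 0.28 and 0.26 in XY. No annotation of mm8 was used here, so the exon of each probe is not given.

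Ccnt2, the T cyclin partner of CDK9, also split. Its brightest probe, at chr1:129623026-129623085, gave -1.79 in XX and -0.73 in XY with no call. The probe at chr1:129632771-129632830 had levels of -0.49 and -0.40 in the XY inputs and 2.11 and 2.75 in the XY IPs, an enrichment of 7.3-fold (2.87, SE 0.46, adjusted p = 0.00073), and gave 1.92 in XX (adjusted p = 0.005). Cdc73, a subunit of the PAF1 transcription complex, gave 2.74 in XX at one probe (SE 0.40, adjusted p = 0.00029) and 1.95 (adjusted p = 0.0033) at its brightest. The call of a dim Cdk5rap3 probe in XX (3.43, adjusted p = 0.027) came with IP levels of 3.19 and -1.99, and was lost without XX IP replicate 1 (0.84) or XX input replicate 2 (3.12, adjusted p = 0.055), and its value was 6.03 without XX IP replicate 2. The bright probe of the same gene gave -1.66.

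**Figure D4:**
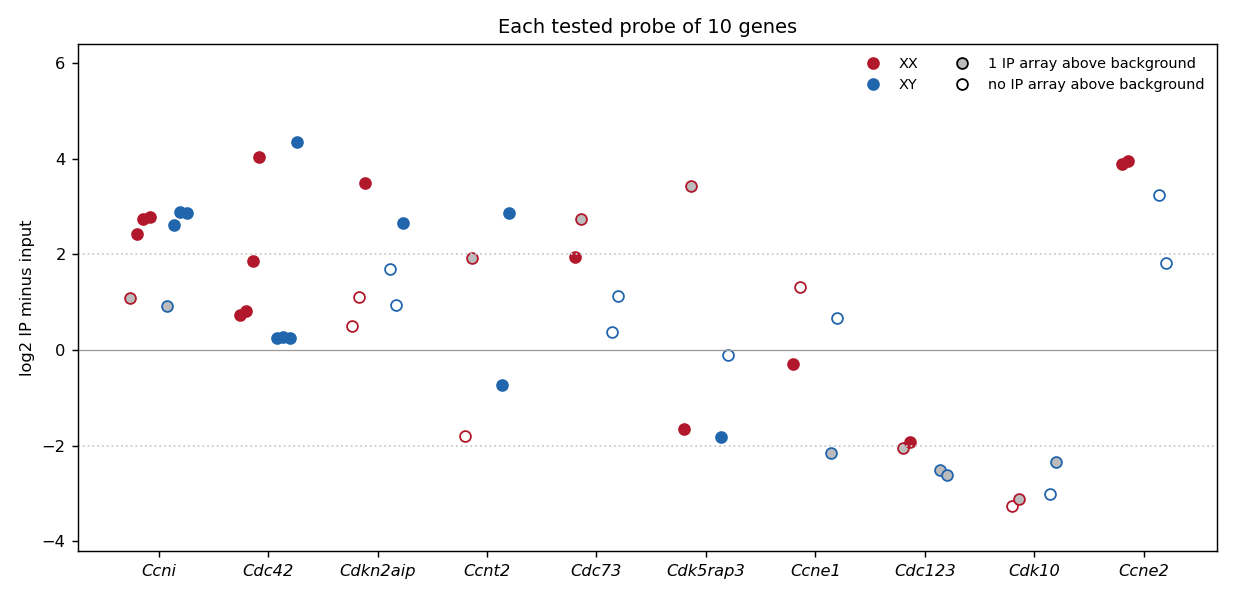
Log2 difference of DAZL IP minus input (vertical axis) for each tested probe of 10 genes, XX in red and XY in blue. Fill gives how many IP arrays of that sex were above background, and dotted lines mark 4-fold. The 3 bright Ccni probes lie together, while 1 of the 4 Cdc42 probes lies above 4 in both sexes and the other XY probes lie near 0.

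The enrichment was compared between the sexes directly, as XX minus XY of the IP minus input differences. This difference and the values of each sex come from the same arrays. Of 120 member probes 1 passed higher in XX, beside 2.18% of all probes, and 0 passed lower in XX, beside 1.12% (limma adjusted p under 0.05). At an unadjusted p under 0.05 there were 19 (15.8%), beside 16.4% of all tested probes. The probe that passed was Cdc42se2 (2.62, SE 0.62, adjusted p = 0.041), and its call was lost without 7 of the 8 arrays, the adjusted p then running from 0.051 to 0.17 and the value from 2.17 to 2.96. Without XY IP replicate 2, XX IP replicate 2 or XY IP replicate 1 more member probes passed, and so did more of all tested probes. Without any one of the 4 inputs no member probe passed, and fewer of all tested probes did. The calls of Ccnd1 and Cdc7 in XX and of Cdk9 and Ccne1 in XY are therefore not shown to be particular to a sex.

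The inputs give the levels that the IPs are measured against, XX minus XY. In XX, 6 member probes were higher and 3 lower at an adjusted p under 0.05 (limma), or 5% and 2.5%, beside 5.87% and 6.10% of all tested probes. The higher genes were Ccne2, Ccnb3, Cdkn1c, Cdk11b and Cdkn1a. Sertoli and Leydig cell markers moved with these comparisons: the Sertoli markers summed to 2.46 to 2.50 in the XX inputs against 166.0 to 202.0 in XY, the Leydig markers to 2.43 to 3.49 against 77.3 to 82.3, and the ovarian supporting markers to 89.3 to 90.8 against 12.8 to 13.7. Germ cell markers differed between the inputs too: Dnd1 (-4.33, adjusted p = 4.6e-05), Nanos3 (-4.65, adjusted p = 6e-05) and Dppa3 (-4.19, adjusted p = 0.00014) were lower in XX and Sycp3 (3.44, adjusted p = 0.00013) higher. The part of any of these in the values below was not tested.

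Ccne2 was higher in the XX inputs by 2.89 (SE 0.57, adjusted p = 0.0055) at its brightest probe, a bound of at least 6.16-fold since neither XY input was above background. The second probe gave 3.80 (SE 0.42, adjusted p = 0.00011) and a bound of at least 3.73-fold. Ccnb3 was 4.66-fold higher in XX (2.22, SE 0.42, adjusted p = 0.0039), with XX levels of 0.20 and 0.36 and XY levels of -1.90 and -1.98. Both genes were also called without each single input array.

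Of the 3 CIP/KIP inhibitors 2 passed as higher in XX, beside 5.87% of all tested probes, and both calls were lost on leaving out any one input. Cdkn1c was 4.43-fold higher (2.15, SE 0.56, adjusted p = 0.026) and Cdkn1a 2.95-fold (1.56, SE 0.42, adjusted p = 0.03), the latter with levels of -0.15 and 0.10 in XX and -1.88 and -1.30 in XY. Cdkn1b gave 0.55 (adjusted p = 0.57). Cdk11b, a kinase gene of transcription and splicing, was 3.8-fold higher in XX (1.93, SE 0.48, adjusted p = 0.02). The INK4 inhibitor Cdkn2b was 3.33-fold lower in XX (-1.73, SE 0.42, adjusted p = 0.017), with levels of -1.78 and -1.72 in XX and -0.02 and 0.00 in XY. The groups did not overlap for any of these 4 called genes. Leaving out any one of the 4 inputs lost each of those calls, with adjusted p from 0.067 to 0.13 for Cdkn1c, 0.1 to 0.38 for Cdkn1a, 0.05 to 0.2 for Cdk11b and 0.13 to 0.15 for Cdkn2b. The sizes changed less, from 1.99 to 2.30 for Cdkn1c and from 1.27 to 1.86 for Cdkn1a.

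One of 3 Ccnb1 probes passed lower in XX (-1.49, SE 0.42, adjusted p = 0.037), and the others gave -1.20 and -1.38 (adjusted p = 0.23 and 0.069). Leaving out any one input lost this call, with adjusted p from 0.19 to 0.34. The same held for a Cdkn2aip probe (-1.47, adjusted p = 0.035), with adjusted p from 0.15 to 0.35, while the brightest Cdkn2aip probe gave -0.10.

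The spread of the inputs was smaller than the common spread of the 8 arrays used so far. When the 4 inputs were fitted alone, 31 member probes were higher and 26 lower in XX, beside 22.6% and 21.5% of all tested probes, which is 21 higher and 18 lower of the 75 genes. In that fit 4 of the 5 tested A, B and F cyclins were lower in XX, and Ccnb3 higher. The lower ones were Ccnb1 (-1.20, SE 0.20, adjusted p = 0.0085), Ccnf (-1.06, adjusted p = 0.035), Ccnb2 (-0.80, adjusted p = 0.01) and Ccna2 (-0.70, adjusted p = 0.018). Cdk1 (-1.08, adjusted p = 0.0082) and Cdc20 (-1.01, adjusted p = 0.01), which act with B cyclins in division, were lower too. For Cdk1 the levels were 0.03 and -0.21 in XX against 1.14 and 0.85 in XY.

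Of the 5 D and E cyclins 4 were higher in XX in the same fit, beside 22.6% of all tested probes. Ccne1 gave 1.37 (SE 0.13, adjusted p = 0.002), Ccnd1 0.72 (adjusted p = 0.014) and Ccnd2 0.60 (adjusted p = 0.028), beside Ccne2. The other Ccnd2 probes were not called, at 0.33 and 0.32 (limma adjusted p = 0.099 and 0.13). Cdk6 was higher as well (0.95, adjusted p = 0.0081). None of these genes other than Ccne2 and Ccnb3 passed with the common spread of 8 arrays (adjusted p of 0.17 or more for Ccnb1, Ccnb2, Ccna2, Cdk1, Cdc20, Ccnf, Cdk6, Ccnd1 and Ccnd2 at these probes, and 0.13 for Ccne1). Each input array of one sex lay beyond both of the other for 97 of the 120 member probes, 48 higher and 49 lower in XX, beside 38.0% and 38.0% of all tested probes.

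**Figure D5:**
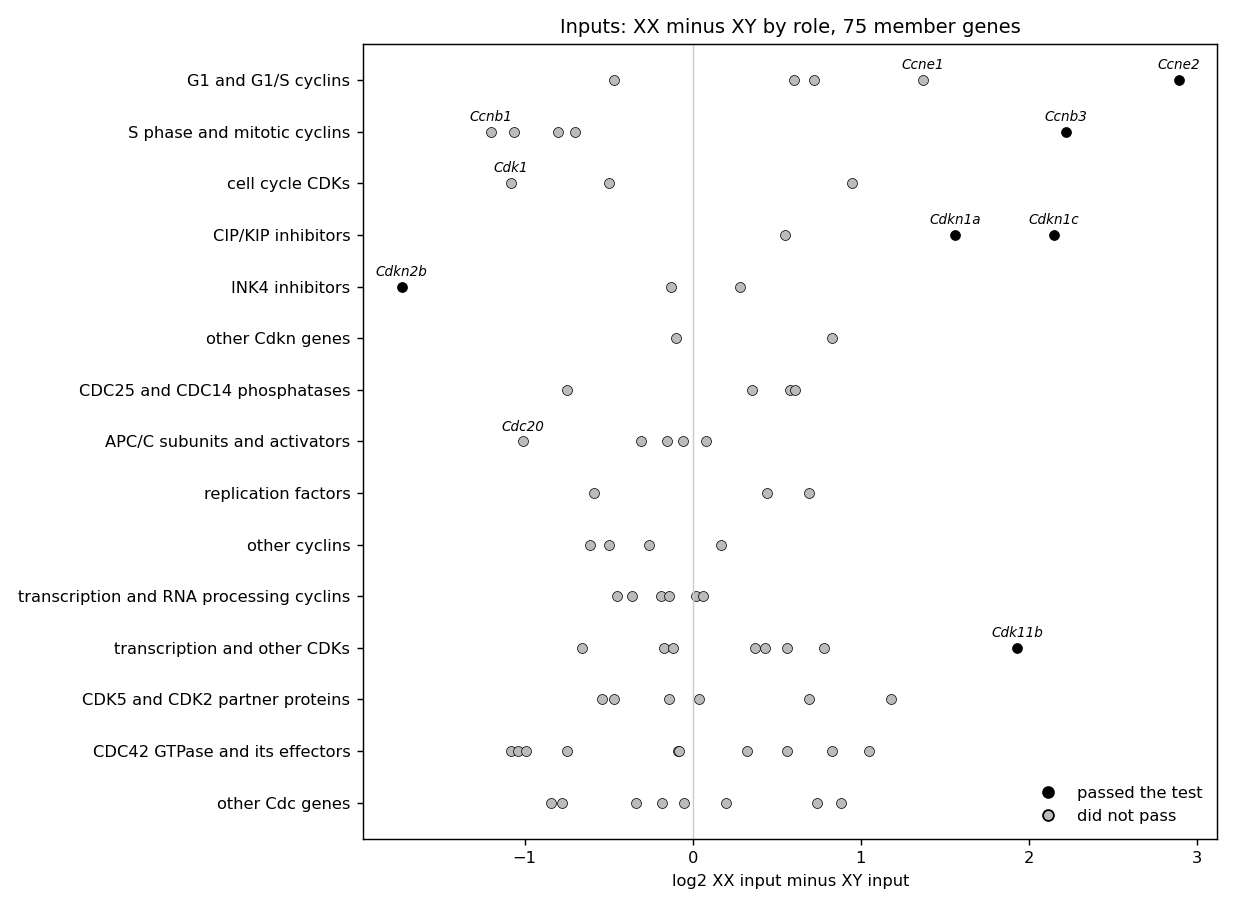
Log2 difference of XX input minus XY input (horizontal axis) for 75 member genes, 1 point per gene at its brightest tested probe, in rows by role. Black points passed at an adjusted p under 0.05 in the fit of all 8 arrays. Ccnb3 stands at 2.22 apart from the other A, B and F cyclins, which lie between -1.20 and -0.70.

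Genes of the same pathway that the naming rule leaves out were counted by list. Of 13 tested pocket protein and E2F genes, 4 were enriched and 0 depleted in XX, and 2 and 0 in XY, beside 14.0% and 9.91% of all tested probes in XX and 10.2% and 7.68% in XY. Tfdp1, the dimer partner of E2F, had levels of 2.57 and 2.76 in the XX inputs, 5.89 and 6.63 in the XX IPs, 2.68 and 2.73 in the XY inputs, and 6.09 and 6.58 in the XY IPs. Its differences were 3.6 and 3.63 (adjusted p = 0.00011 in each sex). Rb1, which encodes the retinoblastoma protein that D cyclin kinases phosphorylate, was enriched as well (2.65 and 2.99, adjusted p = 0.00029 and 0.00022). E2f5 was enriched in XX (2.95, adjusted p = 0.00032). Under the 50th percentile none of Tfdp1, Rb1 and E2f5 was called in XX (1.59, 0.64 and 0.95, limma adjusted p = 0.055, 0.29 and 0.25). Normexp also lost these XX calls (1.38, 0.67 and 0.89). Rb1 was not called in XY in these settings either (1.13 and 0.95).

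Of 13 tested CDK-regulating kinases and ubiquitin ligase parts, 4 were enriched and 0 depleted in XX (all probes 14.0% and 9.91%), and 5 and 2 in XY (10.2% and 7.68%). Cks2, a small subunit that binds CDKs, rose from 4.69 and 4.86 in the XX inputs to 8.60 and 9.43 in the XX IPs, and from 5.91 and 6.01 in the XY inputs to 10.40 and 11.01 in the XY IPs. Its differences of 4.23 and 4.75 (adjusted p = 7.3e-05 and 3.7e-05) were at percentiles 99.3 and 99.7. Mdm2 (3.41 and 3.21, adjusted p = 0.00012 and 0.00019) and its target Trp53 (3.18 and 3.24, adjusted p = 0.00014 and 0.00015), upstream of Cdkn1a, were enriched in both sexes. Under the 50th percentile neither was called in XX (1.40 and 1.17, limma adjusted p = 0.072 and 0.06), nor was Mdm2 in XY (1.35, adjusted p = 0.081). With normexp these values were 1.22, 1.16 and 1.09, again with no call. Cks2 kept its calls in both settings.

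Fbxo5, which encodes the APC/C inhibitor EMI1, passed the test between the sexes (2.84, adjusted p = 0.025). Its levels were 2.24 and 2.17 in the XX inputs, 2.20 and 2.54 in the XX IPs, 1.96 and 1.81 in the XY inputs, and -1.21 and -0.37 in the XY IPs, the last not above background. With the XY IPs at their dimmest detected probe the difference was 1.58. The call was lost without any one input (adjusted p from 0.096 to 0.12), and with normexp background correction the difference turned to -0.22 (adjusted p = 0.88). Of 15 replication licensing genes, 1 was enriched and 1 depleted in XX (all probes 14.0% and 9.91%), and 0 and 1 in XY (10.2% and 7.68%). Orc4, of the origin recognition complex, was enriched in XX (2.30, adjusted p = 0.00071) and not in XY (-0.07, adjusted p = 0.9). The call of the difference of 2.37 (limma adjusted p = 0.038) was lost without any one input or XX IP replicate 1. In XX Orc4 was not called with the 50th percentile (0.29), after quantile normalization (1.99) or with normexp (0.23). Mcm5, a helicase subunit, was depleted in both (-2.21 and -2.84, adjusted p = 0.0094 and 0.0032), but not without XX IP replicate 1 (-1.53) or XY IP replicate 1 (-1.95). Without XX IP replicate 2 and XY IP replicate 2 its values were -2.89 and -3.74, and 1 XY IP array detected it.

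Of 11 mitotic kinase and spindle checkpoint genes, 0 were enriched and 1, Plk1, was depleted in XX (-2.02, adjusted p = 0.0088, 1 IP array above background), a call lost without XX IP replicate 1 (-1.53, adjusted p = 0.075). In XY 0 were called. All tested probes were enriched and depleted at 14.0% and 9.91% in XX and at 10.2% and 7.68% in XY. In the inputs the list had a median XX minus XY difference of -0.90, beside 0.00 for all tested probes. In the fit of the inputs alone 8 of the 11 were lower in XX, beside 21.5% of all tested probes, among them Aurka (-1.45, adjusted p = 0.0019), Aurkb (-1.39, adjusted p = 0.0025) and Plk1 (-1.12, adjusted p = 0.0032). Bub1, a spindle checkpoint kinase, was the 1 that was higher (1.59, adjusted p = 0.0029), with levels of 4.30 and 4.6 in XX and 2.74 and 2.98 in XY. It also passed in the fit of all 8 arrays (adjusted p = 0.017), but not without any one input (adjusted p from 0.11 to 0.25).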

How the data were processed

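Input and DAZL-precipitated RNA of 8 samples was measured on 1-colour Agilent whole mouse genome arrays. The deposited scanner files hold signal intensities per spot, which Feature Extraction 9.5.3.1 had background-subtracted per the file headers and which were not normalized between arrays, and marks for spots above background, saturated or outlying. A deposited table of log2 values, for which the authors raised signals to a minimum of 1 and scaled to the 75th percentile according to their methods, served as an alternative. Other alternatives were the scaling, quantile normalization, normexp, the filter, unmoderated variances, a replicate block, fewer arrays and leaving out each array. Its column medians ran from 1.62 to 1.79 for the inputs and from 3.18 to 4.05 for the IPs, the constant it was centred on is not stated, and it ran in the same direction as the scanner values. No probe was saturated.

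From the processed intensity, outlying spots were left out, values under 1 set to 1, spots of a probe averaged, and log2 values centred on the 75th percentile of the array. A probe was tested if some group had it above background on both arrays, which left 18265. Models were fitted to all 8 arrays with limma 3.58.1 in R 4.3.3, with 1 mean per group and 4 residual degrees of freedom. P-values, two-sided, were adjusted by Benjamini-Hochberg over all tested probes. IP calls needed an adjusted p under 0.05 and 4-fold, the fold limit of the study, and the other contrasts an adjusted p under 0.05. The fit was tested on simulated data first. Folds with an undetected array at its dimmest detected probe were added after the values were seen. With 2 arrays per group, their number limits the precision.

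Named genes were the core cyclins, CDKs, inhibitors and Cdc regulators whatever their values, up to 5 genes with the largest rise and 5 with the largest fall in each comparison, and all passing the test between the sexes. Genes outside this rule, such as those whose probes disagree, Cdc26, Cdc23, Cdc40 and Ccnf, were named after their values were seen. Pathway genes were limited to 3 per list and comparison, those with the smallest p. The members and lists were chosen with earlier results of these data known. Symbols were updated through RefSeq (GRCm38.p6). Positions are on mm8, as in the files.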

Additional observations from a re-analysis of the deposited data

Results flagged for a closer look

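Cdc42se2 was the one member probe whose enrichment differed between the sexes by the test of the difference itself, with an XX minus XY value of 2.62 (limma adjusted p = 0.041). Both XX IP arrays, at 3.57 and 4.25, lay above the XX inputs at 1.31 and 1.37, whereas the XY IPs at 0.28 and 1.18 spanned the XY inputs at 0.71 and 0.85, and 1 XY IP array was above background. The call was lost without any one of 7 of the 8 arrays (adjusted p from 0.051 to 0.17), all but XY IP replicate 2. Slide and sex cannot be told apart here.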

How the results depend on the processing

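Counts of member probes called, higher then lower, were 15 and 9 for XX IP, 13 and 11 for XY IP, 1 and 0 for the difference between the sexes, and 6 and 3 for the inputs. Those of all 18265 tested probes, in brackets, were 2566 and 1810, 1861 and 1403, 398 and 204, and 1072 and 1114. In the same order the members were 2 and 59, 1 and 53, 0 and 0, and 3 and 0 with the 50th percentile (189 and 8643, 219 and 8379, 18 and 9, 510 and 545). They were 12 and 17, 10 and 12, 3 and 3, and 2 and 4 with the percentile over probes detected on all arrays (1672 and 2858, 1256 and 2184, 350 and 230, 934 and 942). After quantile normalization they were 14 and 22, 10 and 15, 5 and 5, and 5 and 5 (1479 and 3286, 1241 and 2478, 491 and 423, 791 and 682). Normexp background correction gave 0 and 14, 1 and 9, 0 and 0, and 1 and 0 (79 and 2055, 65 and 1038, 0 and 0, 455 and 231). Replacing local backgrounds that lay far out before that step, tried only once the data had been seen, gave 0 and 14, 1 and 13, 0 and 0, and 10 and 5 (79 and 2055, 80 and 1942, 140 and 118, 1469 and 1345). Without a filter on dim probes, over 170 member probes, the counts were 60 and 9, 58 and 11, 0 and 0, and 3 and 0. The members enriched were then 35.3% in XX and 34.1% in XY, beside 56.8% and 54.4% of all 41101 probes. Among the 28 member probes detected on all arrays the counts were 7 and 1, 9 and 0, 0 and 0, and 0 and 0 (of all 4206 such probes 1040 and 373, 841 and 231, 98 and 25, 129 and 72). Variances that were not moderated gave 13 and 7, 11 and 5, 0 and 0, and 1 and 0 (2152 and 1409, 1489 and 943, 3 and 0, 337 and 296). The deposited values gave 15 and 9, 13 and 10, 1 and 0, and 6 and 3 (2566 and 1815, 1865 and 1396, 393 and 204, 1073 and 1111). Only the arrays compared gave 16 and 9, 13 and 11, and for the inputs 31 and 26 (2597 and 1813, 1860 and 1407, 4133 and 3930). The cause was not tested.

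Leaving out each array in turn gave 15 to 23 higher and 7 to 13 lower for XX IP, 12 to 14 and 7 to 14 for XY IP, 0 to 6 and 0 to 3 for the difference between the sexes, and 3 to 11 and 0 to 4 for the inputs. The 11 came without either XY IP array, and the 3 and the 0 without each input. Calls kept without each array of the comparison were 17 of 24 in XX, 15 of 24 in XY, 0 of 1 between the sexes and 3 of 9 for the inputs.

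With the replicate number as a block the counts were 16 and 9, 13 and 11, 5 and 0, and 8 and 5 (of all tested probes 2597 and 1813, 1883 and 1410, 962 and 510, 1339 and 1385). Deviations of same-numbered samples correlated at 0.031 between XX input and IP, 0.138 between XY input and IP and 0.52 between the inputs, so not every pair passed 0.1. Whether same-numbered input and IP came from 1 lysate is not stated.

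Of 31 calls of named genes, 31 were kept with the deposited values and with the replicate block, 26 without a filter and after quantile normalization, 14 with the 50th percentile and 7 with normexp. Signal over background limits the IPs, where most probes were dim.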
